A study of Meleagris gallopavo with 3 samples.

Results

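The proteins of 6 genes load cell cholesterol onto high-density lipoprotein, remodel the particle or take its lipid up again: APOA1, ABCA1, ABCG1, LCAT, PLTP and SCARB1. Of these 6, 5 were found by symbol among the 23976 features of the table, and ABCG1 was not analysed here. Levels are in CPM, a gene's exon reads per 1000000 exon reads of the library. All 5 genes reached 5 CPM in at least 1 library, as did 11022 features in all, and LCAT did so only in the Adherent library. The genes were selected on their exon-read levels in these 3 libraries as well as their roles, so levels and ratios from exon reads are a description.

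The cells were satellite cells, the stem cells of skeletal muscle, taken from the breast muscle of turkeys (Meleagris gallopavo) 1 day old. All cells were first cultured for 2 weeks as undifferentiated cells. The Differentiating library came from adherent cells then moved to medium with 4% horse serum. The Suspension library came from cells then kept floating for 3 months, and the Adherent library from undifferentiated cells kept on gelatin. The growth medium of both these cultures held 15% chicken serum. Each library is RNA of 3 experiments pooled, so there is 1 library per group, no spread between cultures can be had and no test was made. All intervals below are 95% and cover counting error only. The length of culture cannot be told apart from the floating state, nor the change of serum from differentiation.

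APOA1 is the main protein of high-density lipoprotein. The transporter ABCA1 passes cholesterol and phospholipid from the cell membrane to APOA1 that carries little lipid, which starts a new particle, and ABCG1 adds sterol to particles already formed. LCAT, an enzyme that APOA1 activates, esterifies the cholesterol, PLTP moves phospholipid between particles, and the receptor SCARB1 takes cholesteryl ester from them into cells. In mammals APOA1 is made mainly by liver and intestine, while in young chickens skeletal muscle makes it as well.

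The libraries held 22816125 exon reads in Differentiating, 23844835 in Suspension and 17444865 in Adherent, so that 1 read was worth 0.0438, 0.0419 and 0.0573 CPM in these libraries. The 10 most abundant genes took 14.1% of exon reads in Differentiating, 5.90% in Suspension and 7.72% in Adherent. Of the satellite and muscle cell markers, 7, 10 and 9 of 10 reached 5 CPM in the Differentiating, Suspension and Adherent libraries. Their summed levels were 4238, 12541 and 10756 CPM in that order of libraries. MYOD1, a factor that commits cells to muscle, stood at 93.8, 768 and 1522 CPM, and PAX7, the defining satellite cell factor, at 1.10, 24.2 and 4.93 CPM. Not all were lowest in Differentiating as these were. CHRNA1 stood at 298, 2674 and 159 CPM and ACTA1 at 1756, 1691 and 4739 CPM. Of the 10 markers, 4 were highest in Adherent and 1, ACTA1, was lowest in Suspension. Names of libraries follow the headings of the count columns. The deposited fold-change columns use them otherwise: the column headed Suspension against Differentiating equalled the Adherent over Differentiating count ratio in size in 100% of 12207 genes, to within 0.02 on the log2 scale, and the column headed Adherent against Differentiating equalled the Suspension over Differentiating ratio in 100% of 12154 genes. If the headings of the counts are the exchanged ones, every value given for Suspension, above or below, belongs to Adherent and the reverse. The paper's published levels of DPT, a matrix gene, go with the exchanged reading. The paper lists DPT as far lower in adherent than in suspension cells, while the counts hold 5 reads in Suspension and 1433 in Adherent.

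APOA1, ABCA1 and LCAT had their lowest levels in Suspension, and SCARB1 and PLTP had theirs in Adherent. A gene was counted as higher or lower where the ratio of its CPM was at least 2-fold. In Differentiating over Suspension 3 of the 5 genes (APOA1, ABCA1 and SCARB1) were higher and 0 lower, beside 9.16% higher, 14.5% lower and 23.6% either way over all genes. In Differentiating over Adherent 2 (SCARB1 and PLTP) were higher and 2 (ABCA1 and LCAT) lower, beside 18.3%, 22.7% and 41.0%. In Suspension over Adherent 2 (SCARB1 and PLTP) were higher and 3 (APOA1, ABCA1 and LCAT) lower, beside 21.6%, 20.0% and 41.6%. The genes were chosen with these comparisons known, so nothing is read from the shares. Of all genes counted in Differentiating over Suspension, 38.8% were higher, against 49.1% with TMM scaling, which left the counts of the 5 genes as they were.

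**Figure D1:**
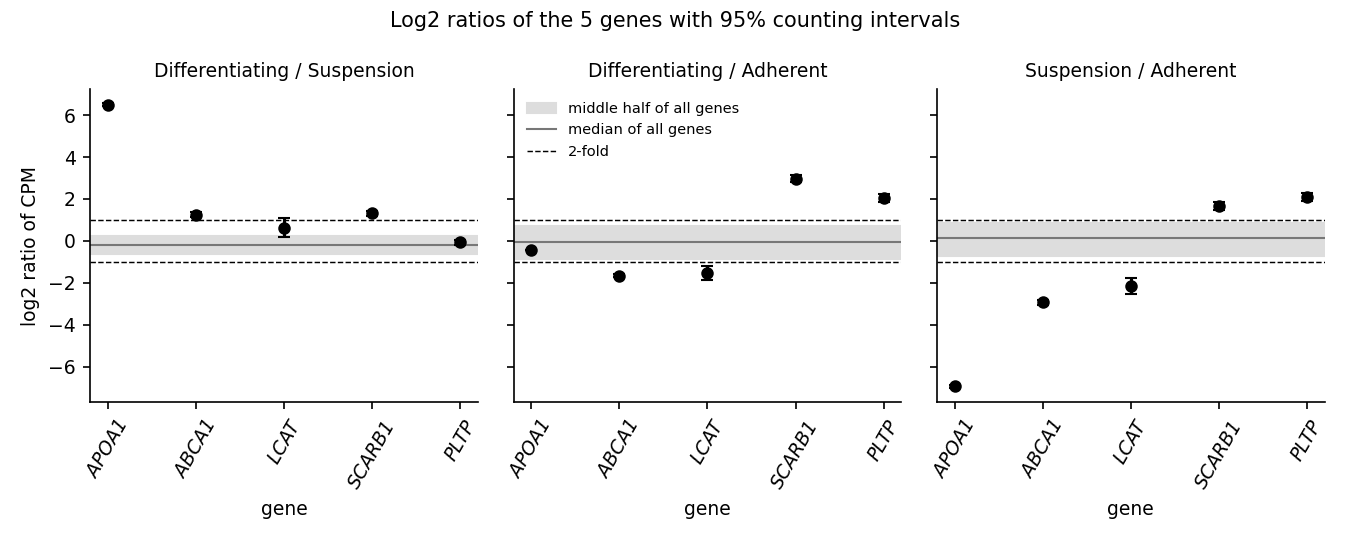
Log2 ratios of the 5 genes from exon reads in the 3 comparisons, with exact 95% intervals and the spread of all genes beside them. APOA1 reaches 6.49 in Differentiating over Suspension and -6.92 in Suspension over Adherent, while SCARB1 and PLTP lie above 0 in both comparisons over Adherent.

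APOA1 was among the most abundant transcripts of the Differentiating and Adherent libraries and was low in the Suspension library. It had 129630 exon reads in Differentiating, 1510 in Suspension and 134169 in Adherent, which is 0.568%, 0.00633% and 0.769% of the exon reads of these libraries. The levels were 5682 CPM [5651 to 5713] in Differentiating, 63.3 CPM [60.2 to 66.6] in Suspension and 7691 CPM [7650 to 7732] in Adherent. By reads per kilobase of exon, APOA1 ranked 3 among all features in Differentiating, 1496 in Suspension and 4 in Adherent. The library headed Suspension in the counts thus stood apart from both others, whose levels were within 2-fold of each other. By the headings of the deposited fold changes, and by the paper's levels of DPT, it would be the Adherent one. In bulk RNA, fewer cells that express a gene and less of its RNA per cell cannot be told apart.

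**Figure D2:**
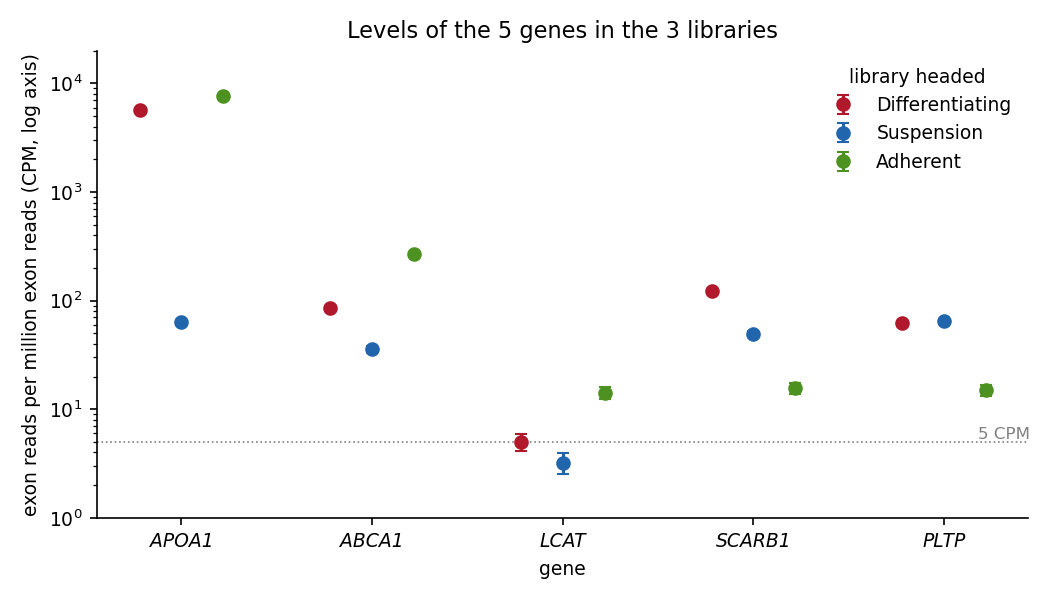
Levels of the 5 genes in each library, in CPM on a log axis, with exact 95% Poisson intervals for counting error, 1 library per group. APOA1 lies at 5682 CPM in Differentiating, 63.3 in Suspension and 7691 in Adherent, while SCARB1 and PLTP have their lowest points in Adherent.

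The log2 ratio of APOA1 was 6.49 [6.41 to 6.56] for Differentiating over Suspension, an 89.7-fold higher level in Differentiating. Only 36 of 10929 genes had a larger ratio in that comparison. For Suspension over Adherent the log2 ratio was -6.92 [-7.00 to -6.85], a 121-fold lower level in Suspension, and 157 of 11020 genes had a more negative one. Between Differentiating and Adherent the log2 ratio was -0.44 [-0.45 to -0.43], which is 0.739-fold. The last interval covers the counting of reads alone, and under other scalings the value lay between -0.37 and -0.12.

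Other counts of reads were set beside the exon reads of APOA1. Reads crossing an exon-exon junction, which come from spliced RNA and are a part of the exon reads, numbered 19149 in Differentiating, 201 in Suspension and 18632 in Adherent, or 14.8%, 13.3% and 13.9% of its exon reads. Their log2 ratios, over total exon reads, were 6.64 [6.44 to 6.85] for Differentiating over Suspension, -0.35 [-0.38 to -0.32] for Differentiating over Adherent and -6.99 [-7.19 to -6.78] for Suspension over Adherent. Intron reads, which reflect unspliced RNA and which the choice of genes did not use, numbered 579, 3 and 702 in the Differentiating, Suspension and Adherent libraries. They made up 0.445%, 0.198% and 0.520% of APOA1's gene reads, against medians of 6.002%, 5.82% and 13.0% over 9032 genes in these libraries. Those medians are over genes of any intron length, while APOA1 spans 1565 bases, of which 1062 are exon bases, so the shares are not like for like. With 3 reads in Suspension, the intron log2 ratio of Differentiating over Suspension had a wide interval, 7.66 [6.10 to 9.94], as did that of Suspension over Adherent, -8.32 [-10.60 to -6.77]. Between Differentiating and Adherent the intron log2 ratio was -0.67 [-0.83 to -0.50] over total exon reads and 0.57 [0.41 to 0.73] over total intron reads, with introns holding 12.0% of all gene reads in Differentiating and 24.3% in Adherent. These reads come from the same 3 libraries and are no replicate.

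The other genes around APOA1 did not show its pattern. APOA1 lies on chromosome 26 of the turkey at 5175778 to 5177342, spans 1565 bases and has 4 exons with 1062 exon bases, by the coordinates of the table, which overlap the Turkey_5.1 annotation. Of 8 neighbours within 50 kb, none overlaps it and 5 reached 5 CPM. The highest was ZPR1 in Differentiating and Suspension, at 53.2 and 61.3 CPM, and SIK3 in Adherent, at 69.1 CPM. APOC3, an inhibitor of lipoprotein lipase in mammals, starts 0.444 kb away and stood at 4.12, 6.08 and 5.50 CPM in Differentiating, Suspension and Adherent. APOA4, an apolipoprotein of intestine in mammals, lies 1.90 kb away and stood at 7.67, 8.56 and 6.76 CPM in the same order. Per kilobase of exon, APOC3 stood at 8.14, 12.0 and 10.9 in these libraries, against 5350, 59.6 and 7242 for APOA1. On the other side, 2.42 kb away, the kinase gene SIK3 stood at 39.7, 38.4 and 69.1 CPM. No neighbour that reached 5 CPM was 2-fold higher in Differentiating over Suspension or 2-fold lower in Suspension over Adherent.

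**Figure D3:**
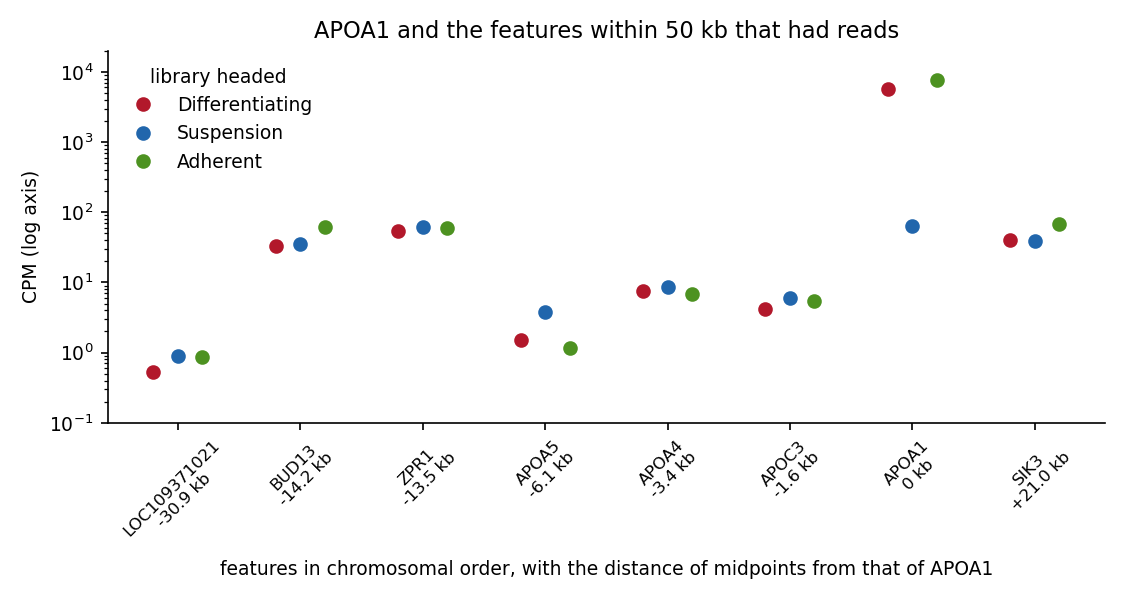
Levels of APOA1 and its neighbours within 50 kb that had reads, in CPM on a log axis, for the 3 libraries. Features are evenly spaced in chromosomal order, with the distance of midpoints from APOA1 in kb in the labels. APOA1 stands at 5682 and 7691 CPM in Differentiating and Adherent. The highest neighbour is ZPR1 in Differentiating, at 53.2 CPM, and SIK3 in Adherent, at 69.1 CPM.

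Levels of APOA1 were set beside markers of other cell types, first those of the cells that make it in mammals. Of 16 hepatocyte markers, 8 reached 5 CPM in Differentiating, 11 in Suspension and 11 in Adherent, and none was at 0. Their summed levels were 311, 417 and 650 CPM in Differentiating, Suspension and Adherent, and that of ALB, serum albumin, was 157, 233 and 238 CPM. The sum was lowest in Differentiating and highest in Adherent, while APOA1 was lowest in Suspension and highest in Adherent. Of the 16 markers, 10 were highest in Adherent and 1 was lowest in Suspension. The latter was TF, transferrin, with 63.2, 53.5 and 269 CPM in Differentiating, Suspension and Adherent. Of 10 enterocyte markers, 1, 2 and 2 reached 5 CPM in the same libraries, and the intestinal genes FABP2, CDX1 and CDX2 were at 0 in all 3, which allows up to 0.131, 0.126 and 0.172 CPM in Differentiating, Suspension and Adherent. Of 9 fibroblast markers, 4 were lowest in Suspension as APOA1 was, 4 in Adherent and TCF21 in Differentiating. LUM, a proteoglycan of collagen matrix, stood at 1521 CPM in Differentiating, 32.0 in Suspension and 440 in Adherent, and DPT, another matrix protein, at 129, 0.210 and 82.1 CPM. DCN, the proteoglycan decorin, had 2104, 164 and 1199 CPM, and PDGFRA, a growth factor receptor, 8.11, 0.0419 and 5.27 CPM in that order, the Suspension value being 1 read. The 4 lowest in Adherent, where APOA1 was highest, were COL1A2, COL3A1, THY1 and PRRX1. THY1 stood at 732, 253 and 34.7 CPM and PRRX1 at 528, 196 and 37.3 CPM in that order. Of 6 adipocyte markers, 4, 3 and 3 reached 5 CPM in Differentiating, Suspension and Adherent, with summed levels of 325, 269.6 and 317 CPM, and DGAT2 was at 0 in Suspension. LPL was the highest of them in Differentiating and Suspension, with 247, 246 and 90.3 CPM in that order of libraries. ADIPOQ, adiponectin, had the library order of APOA1, with 29.4, 8.09 and 210 CPM. Of the 6, 3 were lowest in Suspension and 3 in Adherent. Among the latter, PPARG had nearly equal levels in Suspension and Adherent, 14.80 and 14.79 CPM, and PLIN1 only 11 and 6 reads there. The part of such cells in the level of APOA1 was not tested.

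The genes whose pattern over the 3 libraries was most like that of APOA1 were sought by the distance between their pairs of log2 ratios, Differentiating over Suspension and Differentiating over Adherent, among 2656 genes with at least 100 CPM in 1 library and 10 reads in each. EFEMP1, a matrix glycoprotein of the fibulin family, was nearest at a distance of 0.80, with 141, 2.22 and 293 CPM in Differentiating, Suspension and Adherent. ACKR3, a receptor that removes the chemokine CXCL12, followed at 0.83, with 128, 1.72 and 299 CPM. KCNE4, an accessory subunit of potassium channels, lay at 1.35, TMEM119, a membrane protein of bone-forming cells, at 1.36, and ADAMTS15, a secreted protease, at 1.87. All 5 had their lowest level in Suspension, which follows from choosing them by likeness to APOA1. EFEMP1, ACKR3 and KCNE4 were higher in Adherent than in Differentiating, as APOA1 was. TMEM119, with 112 CPM in Differentiating and 88.9 in Adherent, and ADAMTS15, with 182 and 85.2 CPM, were not. Likeness over 3 libraries is a description. A level at least 2-fold lower in Suspension than in both others, with less than 2-fold between Differentiating and Adherent, was seen in 235 genes (2.13%), and 79 genes (0.717%) lay at least 16-fold below both, as APOA1 did.

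The other apolipoproteins that reached 5 CPM varied less than APOA1 over the libraries. Of those listed, 9 were in the table and 7 reached 5 CPM, and 0 of the 7 differed by 2-fold in any of the 3 comparisons, where 23.6%, 41.0% and 41.6% of all genes did. Their median log2 ratios were -0.55 for Differentiating over Suspension, -0.42 for Differentiating over Adherent and 0.07 for Suspension over Adherent, beside -0.18, -0.05 and 0.15 over all genes. The last turned to -0.02 with upper quartile scaling. CLU, the chaperone clusterin, had 3171 CPM in Differentiating, 1882 in Suspension and 2832 in Adherent. APOO, the next highest by mean, had only 21.0, 34.9 and 33.3 CPM, and the rest of the 7 stood lower. APOA5 and APOD, which stayed under 5 CPM, did pass 2-fold. The log2 ratio of APOD was -2.94 for Differentiating over Suspension, on 4 reads in Differentiating, and that of APOA5 was 1.72 for Suspension over Adherent.

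ABCA1, the exporter that loads APOA1, was lowest in Suspension as well, but its level in Adherent was well above that in Differentiating. It had 1939 exon reads in Differentiating, 848 in Suspension and 4692 in Adherent. The levels were 85.0 CPM [81.2 to 88.9] in Differentiating, 35.6 CPM [33.2 to 38.0] in Suspension and 269 CPM [261 to 277] in Adherent, with no overlap of the intervals. The log2 ratios were 1.26 [1.14 to 1.37] for Differentiating over Suspension, -1.66 [-1.74 to -1.59] for Differentiating over Adherent and -2.92 [-3.03 to -2.81] for Suspension over Adherent. In folds, ABCA1 was 2.39-fold higher in Differentiating than in Suspension, 3.16-fold lower in Differentiating than in Adherent and 7.56-fold lower in Suspension than in Adherent. Per kilobase of exon, where genes can be compared, the level of ABCA1 was 8.39 in Differentiating, 3.51 in Suspension and 26.6 in Adherent, far below APOA1 in each.

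The gap between Differentiating and Adherent was not found in the spliced reads of ABCA1. Its exon-exon reads numbered 159 in Differentiating, 57 in Suspension and 112 in Adherent, or 8.20%, 6.72% and 2.39% of its exon reads. Among 776 genes with 25 to 100 exons, ABCA1 having 50, the median share was 40.4%, 39.2% and 34.7% in these libraries, and 63, 54 and 15 genes had a lower share than ABCA1. The exon-exon log2 ratio of Differentiating over Adherent was 0.12 [-0.24 to 0.48], against -1.66 by all exon reads. The difference between both ratios was 1.78, and 17 of 7636 genes had a larger one, the median over all these genes being 0.11. For Suspension over Adherent the exon-exon log2 ratio was -1.43 [-1.91 to -0.95], and for Differentiating over Suspension 1.54 [1.10 to 2.01]. Intron reads of ABCA1 numbered 50, 55 and 301 in Differentiating, Suspension and Adherent. Over total exon reads their log2 ratios were -0.074 [-0.66 to 0.51] for Differentiating over Suspension, -2.98 [-3.44 to -2.54] for Differentiating over Adherent and -2.90 [-3.35 to -2.48] for Suspension over Adherent. Over total intron reads they were 0.32 [-0.26 to 0.90], -1.74 [-2.20 to -1.31] and -2.07 [-2.51 to -1.65] in the same comparisons. So the exon and intron reads of ABCA1 put Adherent highest, while its exon-exon reads did not separate Adherent from Differentiating.

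**Figure D4:**
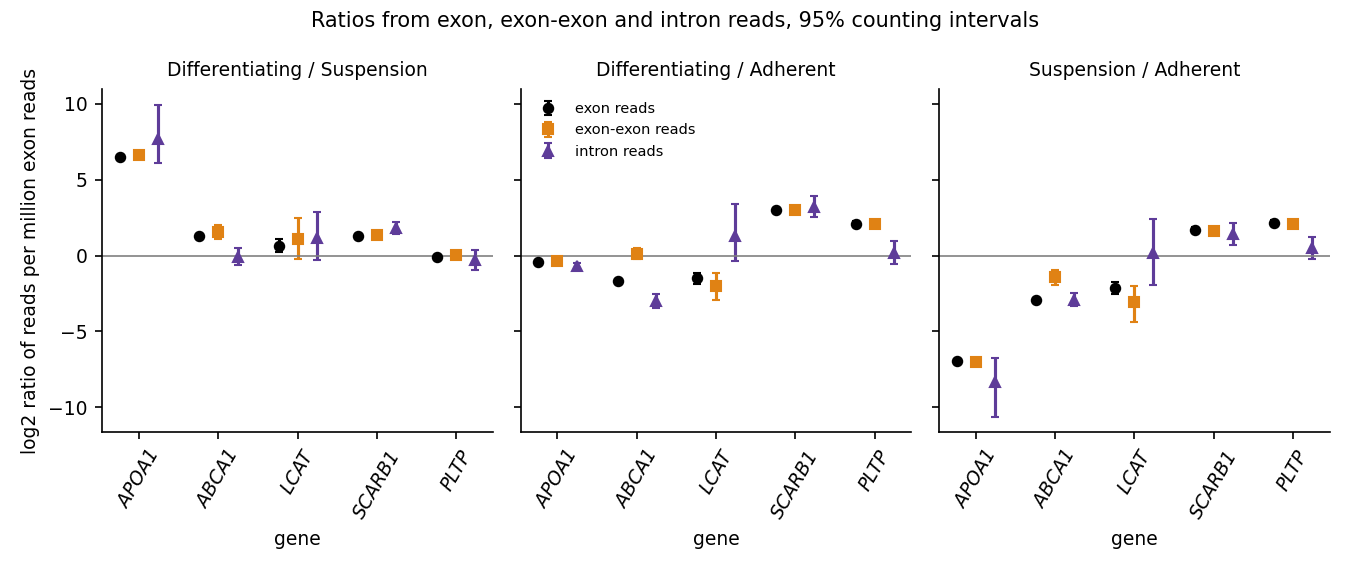
Log2 ratios of the 5 genes in the 3 comparisons from exon reads, exon-exon reads and intron reads, each over total exon reads, with exact 95% intervals. For ABCA1 the ratio of Differentiating over Adherent is -1.66 by exon reads and 0.12 by exon-exon reads, while the SCARB1 ratios of 2.98 and 2.98 coincide.

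ABCA1 lies in the table on a chromosome named W at 49045315 to 49128402, spanning 83088 bases with 10128 exon bases. Of 933 symbols that the table puts on W, 99.89% overlap the same symbol on chromosome Z in the Turkey_5.1 annotation and 0 lie on W there, so that the position is one of chromosome Z in RefSeq. No feature overlaps ABCA1. The nearest, NIPSNAP3A, lies 0.714 kb away and stood at 60.9, 66.8 and 12.8 CPM in Differentiating, Suspension and Adherent, with its lowest level where ABCA1 had its highest.

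Proteins known to act with ABCA1 or in the maturing of the particle were listed as well, and 9 of 10 in the table reached 5 CPM. In Differentiating over Suspension 3 were at least 2-fold higher and 0 lower, in Differentiating over Adherent 2 were higher and 2 lower, and in Suspension over Adherent 2 were higher and 4 lower. Over all genes 9.16% were higher and 14.5% lower in the first comparison, 18.3% and 22.7% in the second, and 21.6% and 20.0% in the last. The median log2 ratios of the 9 genes were 0.56, -0.26 and -0.97, beside -0.18, -0.05 and 0.15 over all genes, and the value of -0.26 turned to 0.049 with RPKM. SNTB1, a syntrophin that binds ABCA1, had the library order of ABCA1, with 25.0 CPM in Differentiating, 9.23 in Suspension and 179 in Adherent. S1PR1, a receptor for the lipid sphingosine-1-phosphate, which particles carry, stood at 8.63, 10.2 and 95.5 CPM in that order. HDLBP, an RNA-binding protein, went the other way with 2245, 1410 and 489 CPM.

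The other ABC transporters were counted in the same way. Of 22 in the table, 18 reached 5 CPM, and of these 3 were higher and 3 lower in Differentiating over Suspension, 3 higher and 11 lower in Differentiating over Adherent, and 2 higher and 9 lower in Suspension over Adherent. Over all genes 9.16% were higher and 14.5% lower in the first comparison, 18.3% and 22.7% in the second, 21.6% and 20.0% in the last. The median log2 ratios of the 18 were 0.03, -1.44 and -0.99 in the 3 comparisons, beside -0.18, -0.05 and 0.15 over all genes. ABCC8, the regulatory subunit of potassium channels that sense ATP, stood at 0.920 CPM in Differentiating, 0.881 in Suspension and 58.6 in Adherent. ABCA3, a lipid transporter of lamellar bodies in mammalian lung, had 344, 166 and 132 CPM and so was highest in Differentiating, unlike ABCA1.

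LCAT, the enzyme that esterifies cholesterol on the particle, had low levels in all 3 libraries. Per kilobase of exon it stood at 2.61 in Differentiating, 1.68 in Suspension and 7.45 in Adherent, the lowest of the 5 genes except in Adherent, where PLTP stood at 5.42. It had 113 exon reads in Differentiating, 76 in Suspension and 246 in Adherent, or 4.95 CPM [4.08 to 5.95], 3.19 CPM [2.51 to 3.99] and 14.1 CPM [12.4 to 15.98]. The order Adherent, Differentiating, Suspension was that of APOA1 and ABCA1. The log2 ratio of Differentiating over Suspension was 0.64 [0.20 to 1.07], under 2-fold, that of Differentiating over Adherent -1.51 [-1.84 to -1.18], and that of Suspension over Adherent -2.15 [-2.54 to -1.77]. LCAT was thus 2.85-fold lower in Differentiating and 4.42-fold lower in Suspension, each against Adherent. Its exon-exon reads, 16 in Differentiating, 8 in Suspension and 49 in Adherent, gave log2 ratios of -2.00 [-2.92 to -1.16] for Differentiating over Adherent and -3.07 [-4.36 to -1.98] for Suspension over Adherent. Its intron reads, 13, 6 and 4 in Differentiating, Suspension and Adherent, went against the exon order of Differentiating and Adherent. Over total exon reads the intron log2 ratio of Differentiating over Adherent was 1.31 [-0.38 to 3.39], and over total intron reads it was 2.55 [0.85 to 4.62], with 1.58 [0.082 to 3.26] for Differentiating over Suspension and 0.97 [-1.11 to 3.24] for Suspension over Adherent. LCAT lies on chromosome 13 at 10683452 to 10687197 and has 5 exons.

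Macrophage markers were also highest in the Adherent library, where ABCA1 and LCAT had their highest levels. Of 10 macrophage markers, 0 reached 5 CPM in Differentiating, 1 in Suspension and 8 in Adherent, and none was at 0. Their summed levels were 11.0, 14.2 and 240 CPM in the same order, with CSF1R, the receptor that macrophages need, at 3.24, 0.503 and 61.6 CPM. The part of such cells in the levels of ABCA1 and LCAT was not tested.

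PLTP, the phospholipid transfer protein, had nearly equal levels in Differentiating and Suspension and a lower one in Adherent. It had 1410 exon reads in Differentiating, 1542 in Suspension and 261 in Adherent, or 61.8 CPM [58.6 to 65.1], 64.7 CPM [61.5 to 68.0] and 15.0 CPM [13.2 to 16.9]. The intervals of Differentiating and Suspension overlap, with a log2 ratio of -0.065 [-0.17 to 0.04], and under other scalings it lay between 0.02 and 0.12. PLTP was 4.13-fold higher in Differentiating than in Adherent, with a log2 ratio of 2.05 [1.85 to 2.24], and 4.32-fold higher in Suspension than in Adherent, with 2.11 [1.92 to 2.31]. Exon-exon reads gave 2.08 [1.84 to 2.32] and 2.07 [1.83 to 2.31] for these comparisons. Intron reads of PLTP numbered only 40, 51 and 27 in Differentiating, Suspension and Adherent, and their log2 ratios over Adherent were 0.18 [-0.56 to 0.94] for Differentiating and 0.47 [-0.23 to 1.20] for Suspension, so both intervals hold 0. Over total intron reads they were 1.41 [0.67 to 2.17] and 1.30 [0.60 to 2.03]. PLTP lies on chromosome 22 at 13152010 to 13157181 with 20 exons, 0.138 kb from its nearest neighbour.

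Other lipases and transfer proteins were set beside PLTP. Of 14 in the table, 8 reached 5 CPM, and of these 1 was higher and 0 lower in Differentiating over Suspension, 6 higher and 0 lower in Differentiating over Adherent, and 4 higher and 1 lower in Suspension over Adherent. Over all genes 9.16% were higher and 14.5% lower in the first comparison, 18.3% and 22.7% in the second, 21.6% and 20.0% in the last. Median log2 ratios of the 8 were -0.03, 1.38 and 0.95, beside -0.18, -0.05 and 0.15 over all genes. The value of -0.03 turned positive with every other scaling tried, up to 0.16. With each of these, 2 of the 8 were higher in Differentiating over Suspension, not 1. The number higher in Suspension over Adherent ranged from 3 to 6. LPL, which frees fatty acids from lipoproteins, had 247 CPM in Differentiating, 246 in Suspension and 90.3 in Adherent, and was also lowest in Adherent. LMF2, named for its likeness to a lipase maturation factor, had 883, 921 and 206 CPM. LIPG, endothelial lipase, which acts on high-density lipoprotein, had 31.3, 5.997 and 14.8 CPM and was lowest in Suspension.

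By exon reads SCARB1, the receptor for high-density lipoprotein, ran opposite to ABCA1 between the adherent cultures, which ABCA1's exon-exon reads did not separate. SCARB1 had its highest level in Differentiating and its lowest in Adherent. It had 2810 exon reads in Differentiating, 1184 in Suspension and 273 in Adherent, or 123 CPM [119 to 128], 49.7 CPM [46.9 to 52.6] and 15.6 CPM [13.8 to 17.6]. No intervals overlap. The log2 ratio was 1.31 [1.21 to 1.41] for Differentiating over Suspension, 2.98 [2.80 to 3.16] for Differentiating over Adherent and 1.67 [1.47 to 1.86] for Suspension over Adherent, which is 2.48-fold, 7.87-fold and 3.17-fold. In Differentiating over Adherent, 360 of 11022 genes had a larger ratio.

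The intron reads of SCARB1, which the choice of genes did not use, gave the same order of libraries as its exon reads. Its exon-exon reads, a large part of those exon reads, 1927, 795 and 187 in Differentiating, Suspension and Adherent, were 68.6%, 67.1% and 68.5% of its exon reads, with log2 ratios of 1.34 [1.22 to 1.46] for Differentiating over Suspension, 2.98 [2.76 to 3.20] for Differentiating over Adherent and 1.64 [1.41 to 1.87] for Suspension over Adherent. Its intron reads, 252, 75 and 21, gave 1.81 [1.43 to 2.20], 3.20 [2.55 to 3.91] and 1.39 [0.67 to 2.16] in the same comparisons, over total exon reads. Over total intron reads they gave 2.21 [1.83 to 2.60], 4.43 [3.79 to 5.15] and 2.22 [1.51 to 2.99]. None of the intron intervals holds 0, but the size of the ratios depends on the total used. The intron reads come from the same libraries and are no replicate. SCARB1 lies on chromosome 17 at 4582553 to 4595819 and has 16 exons. Of 9 fibroblast markers, 8, 7 and 9 reached 5 CPM in Differentiating, Suspension and Adherent and none was at 0, with summed levels of 58916, 17317 and 9286 CPM. The sums are mostly the collagen COL1A2, with 32780, 10967 and 3977 CPM, and COL3A1, with 21111, 5696 and 3475 CPM. Of the 9 markers, 4 had the library order of SCARB1, 4 were lowest in Suspension and 1 was highest in Adherent. Of 6 adipocyte markers, 3 had the library order of SCARB1 by CPM and 3 were lowest in Suspension. In each of the first 3, a step of that order was a near tie or rested on few reads. PPARG had 14.80 CPM in Suspension and 14.79 in Adherent, and LPL 247 in Differentiating and 246 in Suspension. PLIN1 had 11 reads in Suspension and 6 in Adherent. The part of fibroblasts or adipocytes in the level of SCARB1 was not tested.

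Receptors for lipoproteins and lipids other than SCARB1 were counted as well. Of 17 in the table, 13 reached 5 CPM, and of these 2 were higher and 2 lower in Differentiating over Suspension, 3 higher and 7 lower in Differentiating over Adherent, and 2 higher and 6 lower in Suspension over Adherent. Over all genes 9.16% were higher and 14.5% lower in the first comparison, 18.3% and 22.7% in the second, 21.6% and 20.0% in the last. The median log2 ratios of the 13 were 0.08, -1.12 and 0.31, beside -0.18, -0.05 and 0.15 over all genes. So in Suspension over Adherent the median of the 13 was above 0 while more of them were called lower than higher. CD36, a receptor for fatty acids and oxidised lipoprotein of the same family as SCARB1, had 36.7 CPM in Differentiating, 1.51 in Suspension and 748 in Adherent. Its log2 ratio of Differentiating over Adherent was -4.35, against 2.98 for SCARB1. STAB1, a scavenger receptor, stood at 18.7, 0.419 and 84.7 CPM, and MYLIP, which marks lipoprotein receptors for breakdown, at 49.5, 30.9 and 364 CPM.

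Genes that handle sterols inside the cell and the receptors and factors that control such genes were counted in the same way. All 27 listed intracellular sterol genes in the table reached 5 CPM, with 2 higher and 6 lower in Differentiating over Suspension, 6 and 9 in Differentiating over Adherent, and 7 and 7 in Suspension over Adherent. Over all genes 9.16% were higher and 14.5% lower in the first comparison, 18.3% and 22.7% in the second, and 21.6% and 20.0% in the last. Their median log2 ratios were -0.27, -0.18 and -0.22, of which the second turned to 0.13 and the last to 0.0031 with RPKM. STARD4, a carrier of cholesterol within cells, had 58.8 CPM in Differentiating, 71.4 in Suspension and 7.45 in Adherent, and was lowest in Adherent like PLTP. OSBPL10, of the oxysterol-binding family, had 6.71, 15.2 and 98.8 CPM. Of 26 nuclear receptors and sterol factors in the table, 20 reached 5 CPM, with 1 higher and 3 lower, 5 higher and 9 lower, and 4 higher and 6 lower in those comparisons, and median log2 ratios of -0.25, -0.64 and -0.40. SREBF2, the factor that raises cholesterol synthesis and uptake, had 328 CPM in Differentiating, 398 in Suspension and 47.2 in Adherent, again lowest in Adherent like SCARB1 and PLTP. EGR1, an early response factor, had 142, 158 and 4684 CPM.

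**Figure D5:**
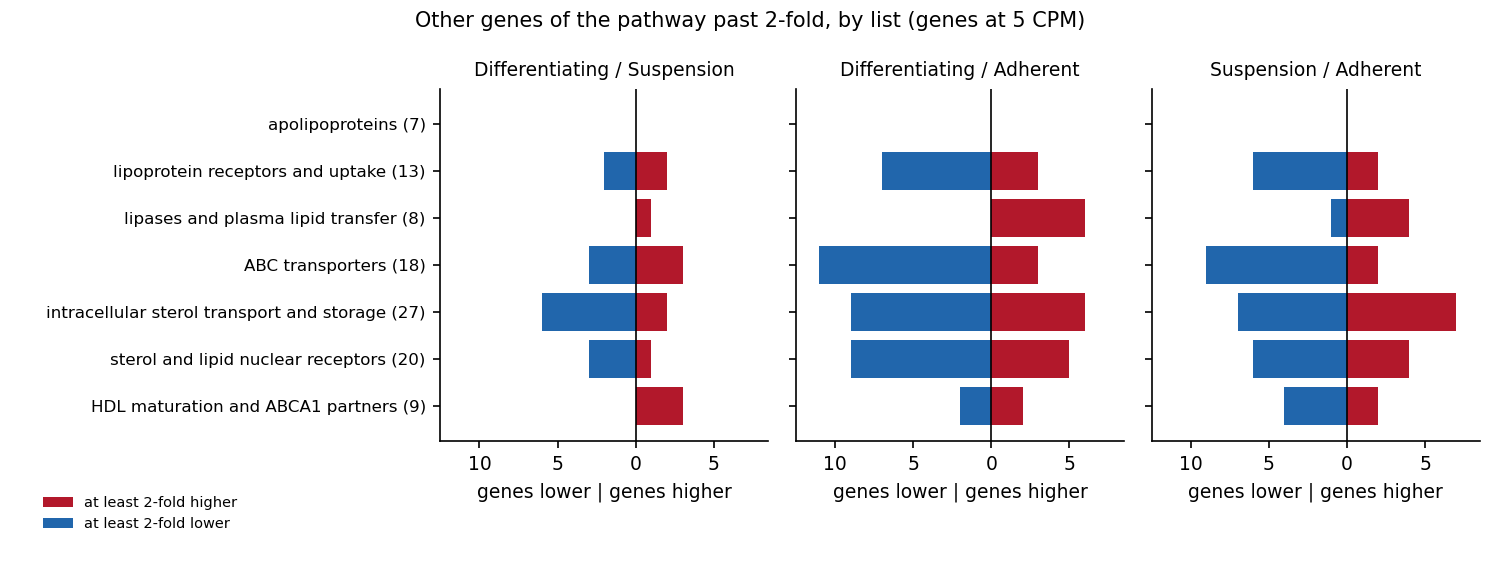
Number of genes at least 2-fold higher or lower in each list of related genes, for the 3 comparisons, among members of the list that reached 5 CPM. Of the 18 other ABC transporters, 11 are lower in Differentiating over Adherent, and of the 8 lipases and transfer proteins 6 are higher. Over all genes in that comparison, which are not drawn, 22.7% were lower and 18.3% higher.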

How the data were processed

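Per the labels, libraries were sequenced from pooled RNA, 1 per culture. The authors deposited a workbook holding, per gene and library, counts of exon, exon-exon, intron and unique reads, RPKM values, and signed fold changes between libraries (a score), which were used only to check the headings. The study names Skewer, STAR, featureCounts and NOISeq. The submitters' processing notes name bcl2fastq 2.20 and STAR 2.5.2b. Neither the labels nor the methods state whether strand was used in counting, or whether the table came by that route.

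CPM were computed as the deposited exon counts over their sum. The deposited RPKM had denominators 1.26, 1.34 and 1.57 times the exon totals in Differentiating, Suspension and Adherent, and were used only as an alternative. Levels have exact Poisson intervals and ratios exact Clopper-Pearson intervals (95%). A gene differed at a ratio of at least 2-fold with at least 5 CPM in 1 library. No pseudocount was added, and a count of 0 was set to a floor of 3. Scripts used Python 3.11.15, scipy 1.17.1 and edgeR 4.0.16 (scaling factors only) and were tested on simulated data.

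Genes named are the 6 chosen, the 5 nearest to APOA1, and markers above 50 CPM. Per list, they are also the 2 genes with the largest ratio among those with at least 20 CPM and 10 reads. The 2 genes per list with the highest mean among those that reached 5 CPM were added. The text leaves some of these genes out. Neighbours of the 5 genes measured, and PAX7, FABP2, CDX1, CDX2, PDGFRA, TCF21, DGAT2, PPARG, PLIN1 and APOD, were chosen after their values were seen. The genes and lists were chosen with earlier results of these data known. Gene positions were checked against RefSeq's Turkey_5.1 table, where 99.96% of 17927 autosomal symbols overlapped. A further marker list is not reported here.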

Additional observations from a re-analysis of the deposited data

How the results depend on the processing

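Over 15 log2 ratios of the 5 genes and the 6 counts, alternatives were scaling by TMM, median of ratios, upper quartile or the total less its top 10 genes, other minimums, pseudocounts and fold limits, and exchanged headings. RPKM, exon-exon and intron reads were chosen after seeing the data. These scalings and RPKM gave the same counts of the 5 genes, while the median log2 ratio of all genes in Differentiating over Suspension moved to -0.0068 with TMM, against -0.18, and in Differentiating over Adherent to 0.14, against -0.050. With the headings exchanged, Differentiating over Suspension gave -0.44 for APOA1 and -1.66 for ABCA1, with 2 genes lower. Differentiating over Adherent then gave 1.26 for ABCA1, 0.64 for LCAT and -0.065 for PLTP, with 0 lower. Suspension over Adherent then gave 6.92 for APOA1, 2.92 for ABCA1, 2.15 for LCAT, -1.67 for SCARB1 and -2.11 for PLTP. In Differentiating over Adherent, 1 gene was lower, not 2, with a pseudocount of 10 CPM, a minimum of 50 CPM, exon-exon reads over the exon total or their own total, and intron reads over either total, and 0 with a 4-fold limit. In Suspension over Adherent, 2 genes were lower, not 3, with that pseudocount, that minimum and intron reads over either total. In Differentiating over Suspension, 4 were higher, not 3, with exon-exon reads over the exon total and with a 1.5-fold limit. Intron reads over their own total gave 3 higher, not 2, in Differentiating over Adherent. The 4-fold limit left 1 higher in Differentiating over Suspension and 1 in Suspension over Adherent, as did intron reads over the exon total in the last. Exon-exon reads turned ABCA1 to 0.12 in Differentiating over Adherent. Intron reads over the exon total turned ABCA1 to -0.074 in Differentiating over Suspension and LCAT to 1.31 in Differentiating over Adherent and 0.13 in Suspension over Adherent, and over their own total LCAT to 2.55 and 0.97. The cause was not tested. No paired analysis was possible because each group has 1 library.

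Counts of genes past 2-fold in either direction, over all genes, were 2581 in Differentiating over Suspension, 4518 in Differentiating over Adherent and 4588 in Suspension over Adherent. They came to 1198, 2580 and 2602 with a pseudocount of 10 CPM, 4089, 7058 and 7082 with no minimum, 1201, 2125 and 2167 with a minimum of 50 CPM, and 907, 2062 and 2055 at 4-fold, and the first to 4464 at 1.5-fold. Of the genes past 2-fold in Differentiating over Suspension, 38.8% were higher, against 49.1% with TMM and 50.4% with median-of-ratios scaling. With RPKM, 59.9% were higher in Differentiating over Adherent, against 44.6%, and 63.2% in Suspension over Adherent, against 52.0%. With intron reads added to exon reads, 3343 genes were lower in Suspension over Adherent, against 2203. Depth limits LCAT, with 76 to 246 exon reads, and the intron ratios of APOA1, with 3 reads in Suspension.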
